A study of Mus musculus with 6 samples.

Results

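The 10 genes described here encode integrin subunits grouped as those of endothelial cells (ECs), 7 alpha subunits (Itga1, Itga2, Itga3, Itga5, Itga6, Itga9 and Itgav) and 3 beta subunits (Itgb1, Itgb3 and Itgb4). They were chosen by gene symbol from a table of 55401 genes, and all 10 passed the filter on low counts that left 18438 genes to be tested. ECs had been sorted from the kidneys of 6 male mice as cells positive for CD31 and negative for the leukocyte antigen CD45, and each mouse, homozygous for a floxed Rbpj allele (Rbpjf/f), gave 1 library. The 3 mice labelled RbpjDEC carried in addition the Cdh5(PAC)-CreERT2 transgene (Cre +/-), in which the endothelial Cdh5 promoter drives a Cre recombinase that tamoxifen activates, and the 3 CTRL mice were Cre-negative littermates (Cre -/-). All 6 mice received 5 doses of 1.5 mg tamoxifen at 8 weeks of age, and kidneys were taken 12 weeks after induction, at a labelled age of 21 weeks. The comparison asks how loss of Rbpj, which encodes the DNA-binding partner of the cleaved Notch receptors, changes RNA levels in kidney ECs.

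Integrins are surface receptors made of 1 alpha and 1 beta subunit, which bind proteins of the extracellular matrix outside the cell and couple them to actin or intermediate filaments inside. The beta1 subunit pairs with many alpha subunits, and the alpha partner sets the ligand. The alpha1 and alpha2 subunits bind collagens, alpha3 and alpha6 bind laminins, alpha5 and alphav bind proteins with the RGD tripeptide such as fibronectin and vitronectin, and alpha9 binds tenascin C, EMILIN1 and other ligands. The beta3 subunit pairs with alphav in ECs, and beta4 pairs with alpha6 in the laminin receptor that anchors epithelial cells at hemidesmosomes.

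The libraries held between 39649171 and 47726850 counts on genes. Levels are given as CPM, a gene's count scaled to the library total after TMM normalization, and a count of 3, taken as the detection floor, was between 0.0634 and 0.0749 CPM. CTRL 1 listed counts on 33764 genes and the other 5 libraries on 25629 to 26785. Over the whole gene, Rbpj had 1127, 1408 and 1259 counts in CTRL 1 to 3 and 1294, 1094 and 1187 in RbpjDEC 1 to 3 (log2 fold change -0.05, edgeR adjusted p = 0.793). Since they cover exons outside the floxed part too, they do not check the deletion, and the group of each library was taken from its label. Of the Notch-associated genes Hey1 and Jag1, Hey1 had 16.7, 19.9 and 22.6 CPM in CTRL 1 to 3 and 11.5, 8.92 and 14.6 CPM in RbpjDEC 1 to 3 (log2 fold change -0.76, edgeR adjusted p = 0.0722). Jag1 was also lower without overlap (log2 fold change -0.54, edgeR adjusted p = 0.0368). Log2 fold changes are RbpjDEC minus CTRL, and p values are those of the quasi-likelihood test of edgeR on 3 libraries against 3, Benjamini-Hochberg adjusted over all 18438 genes with a threshold of 0.05. An exact permutation test of a single gene cannot give a two-sided p below 0.1 with 3 mice against 3.

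Of the 10 integrin genes, 1 was lower (Itgb4) and 0 were higher in RbpjDEC at an edgeR adjusted p below 0.05. Over all genes 1.13% passed this threshold, 0.559% lower (103 genes) and 0.575% higher (106 genes). With library size alone as the scaling, the split over all genes was 82 lower and 159 higher. Without adjustment, 3 integrin genes were lower (Itgb4, Itgb1 and Itga3) and 0 higher at p below 0.05, against 17.5% of all genes in either direction, 8.62% lower and 8.88% higher. The same 3 genes had no overlap between the groups, with every RbpjDEC library below every CTRL library. Over all genes 23% had no overlap in either direction, 11.6% lower and 11.4% higher. The fitted log2 fold change was below 0 for 8 genes and above 0 for Itga5 and Itga6, with a median of -0.21 beside 0.01 over all genes, 9019 of which were below 0. The sum over the 10 genes was 2580, 2331 and 2434 CPM in CTRL 1 to 3 and 2127, 2311 and 2097 CPM in RbpjDEC 1 to 3. Of these sums the highest in RbpjDEC lay just below the lowest in CTRL. In bulk RNA, fewer cells of a type and less RNA per cell cannot be told apart.

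**Figure D1:**
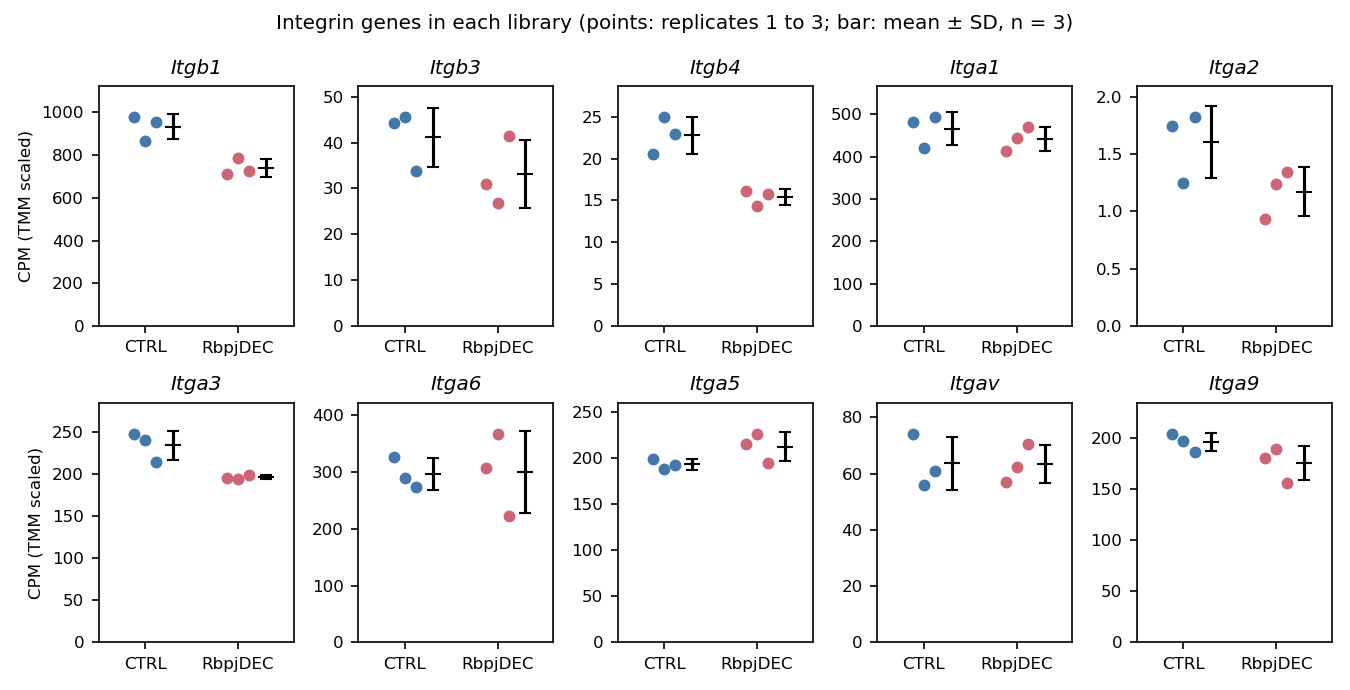
Level of each of the 10 integrin genes in CPM (y axis, from 0) in the 3 CTRL and 3 RbpjDEC libraries. Points are libraries in the order of replicates 1 to 3, and bars show the mean ± SD (n = 3). The groups do not overlap for Itgb1, Itgb4 and Itga3, while the 3 RbpjDEC libraries spread widely for Itga6 (223 to 367 CPM).

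RefSeq promoter sequences on GRCm38.p6 were at hand for Itga1, Itga2, Itga3, Itga5, Itga9, Itgav and Itgb1, 7 of the 10 genes, with a pair of starts listed for Itga3. Those of Itgb1 and Itga3 are shown because the groups did not overlap for these genes, and that of Itga5 as the gene with the highest fitted log2 fold change. Each is printed 5′ to 3′ on the gene's own strand up to the base before the RefSeq start (for Itga3, before the outermost start in GENCODE), with the GC box (GGGCGG or its reverse complement, the motif of SP-family factors) in capitals. The Itgb1 sequence is chr8:128685404-128685653 on the plus strand, that of Itga3 is chr11:95076802-95076964 on the minus strand and that of Itga5 is chr15:103366792-103367041 on the minus strand.
Itgb1: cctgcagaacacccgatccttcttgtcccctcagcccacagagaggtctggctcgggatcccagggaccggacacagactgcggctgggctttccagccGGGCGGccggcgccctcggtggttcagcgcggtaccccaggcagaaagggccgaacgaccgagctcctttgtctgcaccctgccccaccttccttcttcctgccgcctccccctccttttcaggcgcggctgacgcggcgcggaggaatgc
Itga3: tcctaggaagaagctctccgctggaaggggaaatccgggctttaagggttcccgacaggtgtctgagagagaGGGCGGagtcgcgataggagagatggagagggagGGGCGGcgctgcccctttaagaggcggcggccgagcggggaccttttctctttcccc
Itga5: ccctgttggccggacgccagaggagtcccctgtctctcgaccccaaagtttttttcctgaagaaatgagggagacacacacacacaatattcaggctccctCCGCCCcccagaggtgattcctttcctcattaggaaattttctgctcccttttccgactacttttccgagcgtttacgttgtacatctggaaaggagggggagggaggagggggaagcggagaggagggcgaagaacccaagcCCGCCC
The printed stretches hold 1 GC box for Itgb1, 2 for Itga3 and 2 for Itga5. Of the 8 windows of these genes, 4 hold a GC box and those of Itga1, Itga2, Itga9 and Itgav hold 0, and 32.7% of 32851 RefSeq promoter windows of 250 bases hold at least 1. The core of the RBPJ motif, TGGGAA, was searched on both strands of the 250 bases before each RefSeq start and matched 0 of the 8 windows of these genes, against 21.6% of all windows. The Itga9 window (chr9:118711442-118711691) and the window of the inner Itga3 start lie inside these genes as GENCODE has them. The bases before the outermost GENCODE start of Itga9 were therefore not searched for either motif. The GC content of the window was 68% for Itgb1, 67.6% for the outer start of Itga3 and 55.6% for Itga5, beside a median of 52.4% over all windows.

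Itgb4 (ENSMUSG00000020758.15), on chromosome 11 of GRCm38 from 115974709 to 116008412, fell in RbpjDEC by 32.4%. It encodes the beta4 subunit, whose only known alpha partner is alpha6. Its level was 20.5, 24.9 and 22.9 CPM in CTRL 1 to 3 and 16.1, 14.3 and 15.8 CPM in RbpjDEC 1 to 3. The lowest CTRL library was thus above the highest RbpjDEC library, with means of 22.8 ± 2.21 and 15.4 ± 0.963 CPM (SD, n = 3). The log2 fold change was -0.57 (standard error 0.105, 95% interval -0.80 to -0.34, edgeR adjusted p = 0.0318). This call did not hold in every fit that left out 1 library, since the edgeR adjusted p was 0.120 without CTRL 3, 0.112 without RbpjDEC 1 and 0.116 without RbpjDEC 2, with the log2 fold change between -0.64 and -0.50 over the 6 fits.

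Itgb1 (ENSMUSG00000025809.15; chromosome 8 from 128685654 to 128733200) encodes the beta1 subunit, the common partner of the alpha subunits described here. Its level was 978, 868 and 955 CPM in CTRL 1 to 3 and 710.2, 785 and 724 CPM in RbpjDEC 1 to 3. All 3 RbpjDEC libraries were below all CTRL libraries, and the group mean was 20.7% lower. The log2 fold change of -0.34 (standard error 0.0766, 95% interval -0.50 to -0.17) did not pass, with an edgeR adjusted p of 0.0610. Itgb1 passed without CTRL 2 (edgeR adjusted p = 0.0245). It passed in none of the other fits that left out 1 library, with an edgeR adjusted p up to 0.246 (without RbpjDEC 1). The Wald test of DESeq2 on the same 18438 genes put its adjusted p at 0.00250 (0.00475 without the low-count filter).

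Itgb3 (ENSMUSG00000020689.4; chromosome 11 from 104608000 to 104670476) encodes the beta3 subunit, which is also the platelet fibrinogen receptor's beta chain when paired with alphaIIb. Its level was 44.2, 45.5 and 33.8 CPM in CTRL 1 to 3 and 31.0, 26.9 and 41.4 CPM in RbpjDEC 1 to 3. The groups overlapped, with CTRL 3 below RbpjDEC 3, and the log2 fold change was -0.31 (standard error 0.173, 95% interval -0.71 to 0.09, edgeR adjusted p = 0.396). It was -0.18 without RbpjDEC 2 and -0.51 without RbpjDEC 3 (edgeR adjusted p = 0.0667), and -0.31 with no low-count filter, where it passed (edgeR adjusted p = 0.0438). Platelet markers, Itga2b among them, summed to between 5.11 and 10.1 CPM in CTRL and between 5.96 and 7.61 CPM in RbpjDEC, and Treml1 had 0 counts in all 6 libraries.

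Among the laminin-binding alpha subunits, Itga3 (ENSMUSG00000001507.16; chromosome 11 from 95044474 to 95076801) had 248, 240.2 and 214 CPM in CTRL 1 to 3 and 196, 194 and 199 CPM in RbpjDEC 1 to 3. The RbpjDEC libraries lay close together and all below CTRL, and the log2 fold change of -0.25 (standard error 0.0716, 95% interval -0.41 to -0.10) was short of the threshold (edgeR adjusted p = 0.103). The DESeq2 adjusted p of Itga3 was 0.0913 without the low-count filter and 0.0409 on the filtered genes, a setting chosen after seeing the data. Without that filter Itga3 also passed in edgeR (adjusted p = 0.0405). The alpha3 subunit is also the main laminin receptor chain of podocytes. Of 7 podocyte markers, 5 had a log2 fold change below 0 and 2 above, with 0 past the threshold, and their sum was higher in RbpjDEC without overlap (256 to 273 against 229 to 249 CPM). Nphs1, the slit diaphragm protein nephrin, had 1.39 to 2.98 CPM in CTRL and 0.334 to 2.42 CPM in RbpjDEC. Their part in the Itga3 difference was not tested.

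Itga6 (ENSMUSG00000027111.16; chromosome 2 from 71745616 to 71858416), the partner of both beta1 and beta4, had 327, 290.0 and 273 CPM in CTRL 1 to 3 and 308, 367 and 223 CPM in RbpjDEC 1 to 3. RbpjDEC 2 held the highest and RbpjDEC 3 the lowest value of all 6 libraries, and the SD was 72.4 CPM in RbpjDEC beside 27.7 CPM in CTRL. The fitted log2 fold change was 0.01 with a 95% interval from -0.41 to 0.44, which spans 0.752 to 1.35 times the CTRL level. Itgb4 thus fell in libraries in which its partner Itga6 moved in no common direction. The difference between the log2 fold changes of these genes was not tested.

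The collagen-binding subunits differed widely in level. Itga1 (ENSMUSG00000042284.10; chromosome 13 from 114953096 to 115101964) had 483, 421 and 493 CPM in CTRL 1 to 3 and 412, 444 and 469.6 CPM in RbpjDEC 1 to 3, with overlapping groups and a log2 fold change of -0.07 (95% interval -0.25 to 0.10). Itga2 (ENSMUSG00000015533.9), its neighbour on chromosome 13 from 114833081 to 114932100, had only 1.75, 1.25 and 1.82 CPM in CTRL 1 to 3 and 0.937, 1.24 and 1.35 CPM in RbpjDEC 1 to 3. These levels came from 42 to 77 counts per library, and the interval of the Itga2 log2 fold change was correspondingly wide (-0.45, 95% interval -1.12 to 0.22).

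The fibronectin receptor chain Itga5 (ENSMUSG00000000555.8; chromosome 15 from 103344286 to 103366763) had 199.8, 188 and 193 CPM in CTRL 1 to 3 and 215, 227 and 195 CPM in RbpjDEC 1 to 3. RbpjDEC 3 fell within the range of CTRL while RbpjDEC 1 and 2 were above it, a log2 fold change of 0.13 (95% interval -0.02 to 0.29, edgeR adjusted p = 0.364). Itgav (ENSMUSG00000027087.11; chromosome 2 from 83724397 to 83806916), which encodes the alphav chain of vitronectin receptors, had 74.1, 55.8 and 60.8 CPM in CTRL 1 to 3 and 57.1, 62.5 and 70.5 CPM in RbpjDEC 1 to 3. Its groups overlapped throughout, with a log2 fold change of -0.01 and a 95% interval from -0.25 to 0.24. Itga9 (ENSMUSG00000039115.13; chromosome 9 from 118606690 to 118901003), the alpha9 chain known from lymphatic valves, had 204, 197 and 187 CPM in CTRL 1 to 3 and 181, 189 and 157 CPM in RbpjDEC 1 to 3. RbpjDEC 2 lay above CTRL 3 by a small margin, and the log2 fold change of -0.16 (95% interval -0.33 to 0.02) was not called (edgeR adjusted p = 0.331).

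**Figure D2:**
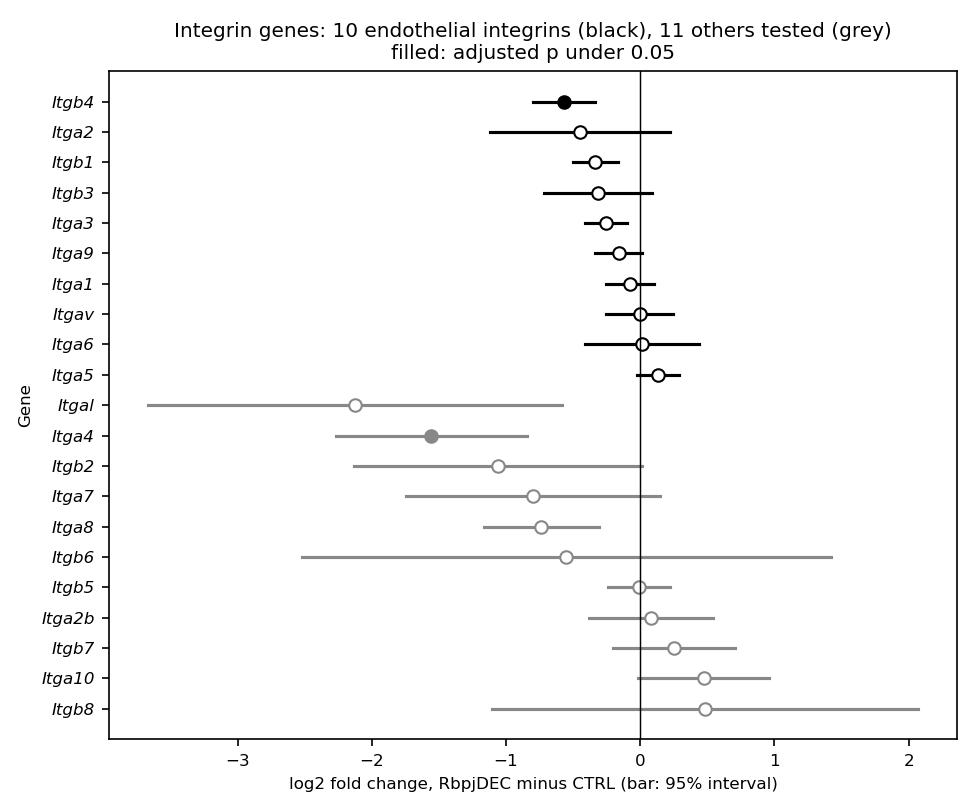
Log2 fold change of RbpjDEC minus CTRL (x axis) for each tested integrin gene (y axis), with 95% intervals as bars. The 10 endothelial integrins are black, the 11 other tested integrin genes grey, and filled points passed an adjusted p of 0.05. Itgb4 (-0.57) and Itga4 (-1.56) are the filled points, and the intervals of Itgb1, Itga3, Itga8 and Itgal also lie below 0.

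To compare levels between genes, CPM was divided by the exonic length of each gene (CPM per kb). Over the 3 CTRL libraries, Itgb1 stood first with 213 to 239.5 CPM per kb, followed by Itga3 (37.6 to 43.4), Itga5 (38.2 to 40.5), Itga6 (30.2 to 36.3), Itga9 (24.3 to 26.6) and Itga1 (22.6 to 26.5). Itgb3 (5.73 to 7.71), Itgav (5.20 to 6.90), Itgb4 (2.93 to 3.56) and Itga2 (0.175 to 0.256) were lower. By the mean of both groups the order was Itgb1, Itga5, Itga3, Itga6, Itga1, Itga9, Itgb3, Itgav, Itgb4 and Itga2. Over the 6 libraries the ranges of neighbours in this order overlapped, except between Itgb1 and Itga5, between Itga9 and Itgb3, and on either side of Itgb4. The exonic length joins all annotated isoforms. Per kb of the longest coding transcript instead, Itga6 was second with 68.8 CPM per kb in CTRL and Itgav was above Itgb3, while Itgb1, Itgb4 and Itga2 held the first and the last places.

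Together the 3 beta genes had 249.9, 224 and 243 CPM per kb in CTRL 1 to 3 and 182, 199 and 187 CPM per kb in RbpjDEC 1 to 3, without overlap. Itgb1 made up 95.7% ± 0.678 of this sum in CTRL and 95.9% ± 0.825 in RbpjDEC (SD, n = 3). The sum leaves out Itgb5, an alphav partner outside the 10 genes, which had a higher level per kb than Itgb3 and Itgb4. The 7 alpha genes had 179.8, 166 and 164 CPM per kb in CTRL 1 to 3 and 163, 175 and 152 CPM per kb in RbpjDEC 1 to 3, and here the groups overlapped. The ratio of the beta to the alpha sum therefore stood at 1.39, 1.35 and 1.49 in CTRL 1 to 3 and at 1.11, 1.14 and 1.23 in RbpjDEC 1 to 3. Lengths of the longest coding transcripts gave ratios from 1.02 to 1.12 in CTRL and from 0.835 to 0.938 in RbpjDEC, again without overlap. Within the alpha sum the share of Itga5 was 22.5% to 23.9% in CTRL and 26.1% to 26.8% in RbpjDEC. The share of Itga9 was lower without overlap (14.8% to 15.4% in CTRL and 13.4% to 14.4% in RbpjDEC), and that of Itga3 was 24.2% ± 1.19 and 21.1% ± 1.81 (SD, n = 3) with overlap. No test was run on these sums and shares.

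**Figure D3:**
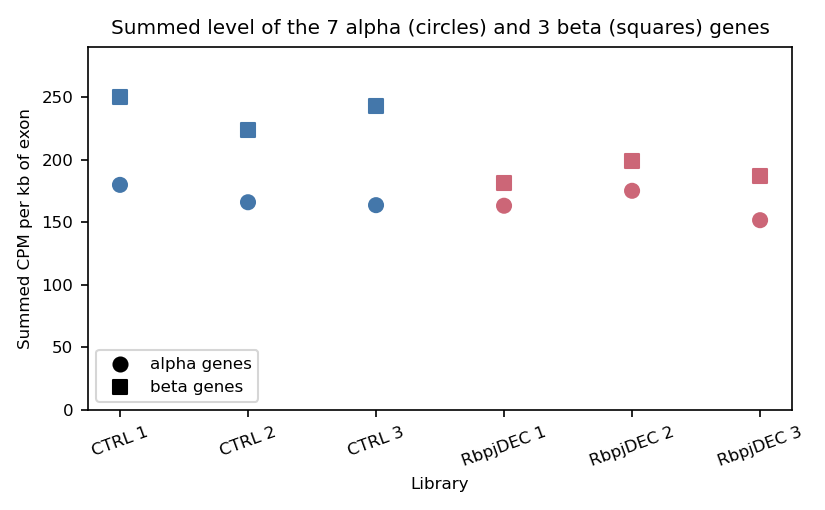
Summed level of the 7 alpha genes (circles) and of the 3 beta genes (squares) in CPM per kb of exon (y axis, from 0) in each library (x axis), CTRL in blue and RbpjDEC in red. The beta sum is 224 or more in every CTRL library and 199 or less in every RbpjDEC library, while the alpha sums of the groups overlap.

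Of the 16 other integrin genes, 11 passed the filter on low counts, 1 was lower and 0 were higher at an edgeR adjusted p below 0.05, and their median log2 fold change was -0.55. This median was not stable, between -0.92 (without RbpjDEC 3) and -0.11 (without CTRL 1) with 1 library left out. With a filter of 1 CPM in 3 libraries it was -0.0082. Itgb5, which pairs with alphav and was not among the 10 genes, had 54.0 ± 1.50 CPM per kb in CTRL and 53.6 ± 8.71 in RbpjDEC (SD, n = 3), a level between those of Itgb1 and Itga3, and a log2 fold change of -0.01 (95% interval -0.24 to 0.22). The gene that passed was Itga4, the alpha4 chain by which leukocytes bind VCAM1, with 8.11, 4.99 and 4.21 CPM in CTRL 1 to 3 and 1.63, 1.41 and 2.84 CPM in RbpjDEC 1 to 3 (log2 fold change -1.56, edgeR adjusted p = 0.0498). It did not pass without CTRL 1 (0.147), CTRL 3 (0.0959), RbpjDEC 1 (0.213) or RbpjDEC 2 (0.135).
Ptprc, which encodes CD45, against which the cells had been sorted, had 157, 55 and 114 counts in CTRL 1 to 3 and 24, 31 and 64 counts in RbpjDEC 1 to 3. The leukocyte integrins Itgal (log2 fold change -2.12, edgeR adjusted p = 0.158) and Itgb2 (-1.06, edgeR adjusted p = 0.291) were highest in CTRL 1, with 3.27 and 6.88 CPM. The part of CD45-expressing cells in the Itga4 difference was not tested.
Itga8, the alpha8 chain of mesangial and smooth muscle cells, had 39.1, 25.5 and 29.1 CPM in CTRL 1 to 3 and 14.7, 20.4 and 21.0 CPM in RbpjDEC 1 to 3 (log2 fold change -0.74, edgeR adjusted p = 0.101). Itga10, a collagen-binding chain, had 3.25 ± 0.780 CPM in CTRL and 4.53 ± 0.558 CPM in RbpjDEC (SD, n = 3), with a log2 fold change of 0.47 (edgeR adjusted p = 0.300). Itga11, Itgad, Itgae, Itgam and Itgax were below the filter, and none of them exceeded 0.698 CPM in any library.

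The matrix and surface proteins that integrins bind were followed as a list of 46 genes, of which 40 were tested. At an edgeR adjusted p below 0.05, 4 were lower and 0 higher. The median log2 fold change was -0.18 beside 0.01 over all genes. With 1 library left out it was between -0.30 (without RbpjDEC 3) and -0.12 (without CTRL 1). The 4 genes were Col18a1, a basement membrane collagen (-0.95, edgeR adjusted p = 0.000457), Vwf, the von Willebrand factor that alphavbeta3 can bind (-0.75, edgeR adjusted p = 0.00691), Fbn1, the RGD-bearing fibrillin (-0.81, edgeR adjusted p = 0.00860), and Lamb1, a laminin beta chain (-0.42, edgeR adjusted p = 0.0471). Col18a1 passed without any 1 library, Vwf did not pass without RbpjDEC 1 (0.0635), Fbn1 not without CTRL 3 (0.0563) or RbpjDEC 1 (0.0580), and Lamb1 passed only without CTRL 2. Scaled by library size alone, Lamb1 did not pass either (0.0633). Tnc, the tenascin C that alpha9 binds, had 6.61, 4.18 and 5.99 CPM in CTRL 1 to 3 and 1.36, 0.834 and 2.72 CPM in RbpjDEC 1 to 3, and its log2 fold change of -1.77 was short of the threshold (edgeR adjusted p = 0.0622). Emilin1, whose protein alpha9 also binds, had 128 ± 9.08 CPM in CTRL and 131 ± 25.9 CPM in RbpjDEC (SD, n = 3). Its log2 fold change was 0.03 (edgeR adjusted p = 0.923). Col1a2, a chain of the collagen I that alpha1 and alpha2 bind, had 1.82 ± 0.517 CPM in CTRL and 0.510 ± 0.271 CPM in RbpjDEC (SD, n = 3), with a log2 fold change of -1.83 at the same adjusted p. Col1a2 is also among the stroma markers given below, and the part of stroma cells in its difference was not tested.
Lama3, a laminin alpha chain, had 192 ± 16.9 CPM in CTRL and 203 ± 21.4 CPM in RbpjDEC (SD, n = 3). The laminin alpha chains that ECs deposit, Lama4 and Lama5, had log2 fold changes of 0.0012 and -0.04. The collagen IV chains Col4a1 and Col4a2 had log2 fold changes of 0.02 and 0.03, and fibronectin (Fn1) one of -0.68 (edgeR adjusted p = 0.188).

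Proteins that bind integrins at the membrane, regulate their activity or join them to the cytoskeleton were followed as a list of 40 genes, all of them tested. Of these, 2 were lower and 0 higher at an edgeR adjusted p below 0.05, and 33 had a fitted log2 fold change below 0, beside 9019 of the 18438 tested genes, with a median of -0.12. Tns3, which encodes the adhesion adaptor tensin 3, had 167, 146 and 139 CPM in CTRL 1 to 3 and 115, 113 and 103 CPM in RbpjDEC 1 to 3 (log2 fold change -0.45, edgeR adjusted p = 0.0295). Actn1, which encodes the actin crosslinker alpha-actinin 1, had 35.5, 33.8 and 30.5 CPM in CTRL 1 to 3 and 25.8, 22.8 and 20.5 CPM in RbpjDEC 1 to 3 (log2 fold change -0.53, edgeR adjusted p = 0.0384). All RbpjDEC libraries were below all CTRL libraries for both genes, and neither passed without CTRL 1, CTRL 3, RbpjDEC 1 or RbpjDEC 2, with an adjusted p up to 0.105 for Tns3 and up to 0.134 for Actn1.
Integrin-linked kinase (Ilk) and the parvins that bind it had fitted values on either side of 0, none of which passed. Parvb (-0.29, edgeR adjusted p = 0.0598), Parva (-0.26, edgeR adjusted p = 0.113) and vinculin (Vcl, -0.23, edgeR adjusted p = 0.114) had log2 fold changes below 0, and Ilk had 0.23 (edgeR adjusted p = 0.177). The integrin activators talin 1 (Tln1) and kindlin 2 (Fermt2) had log2 fold changes of -0.15 and -0.11, and focal adhesion kinase (Ptk2) had 0.0089. Plec and Dst, which encode the plakins that link alpha6beta4 to intermediate filaments in epithelia, had log2 fold changes of -0.24 (edgeR adjusted p = 0.241) and -0.20 (edgeR adjusted p = 0.233).

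**Figure D4:**
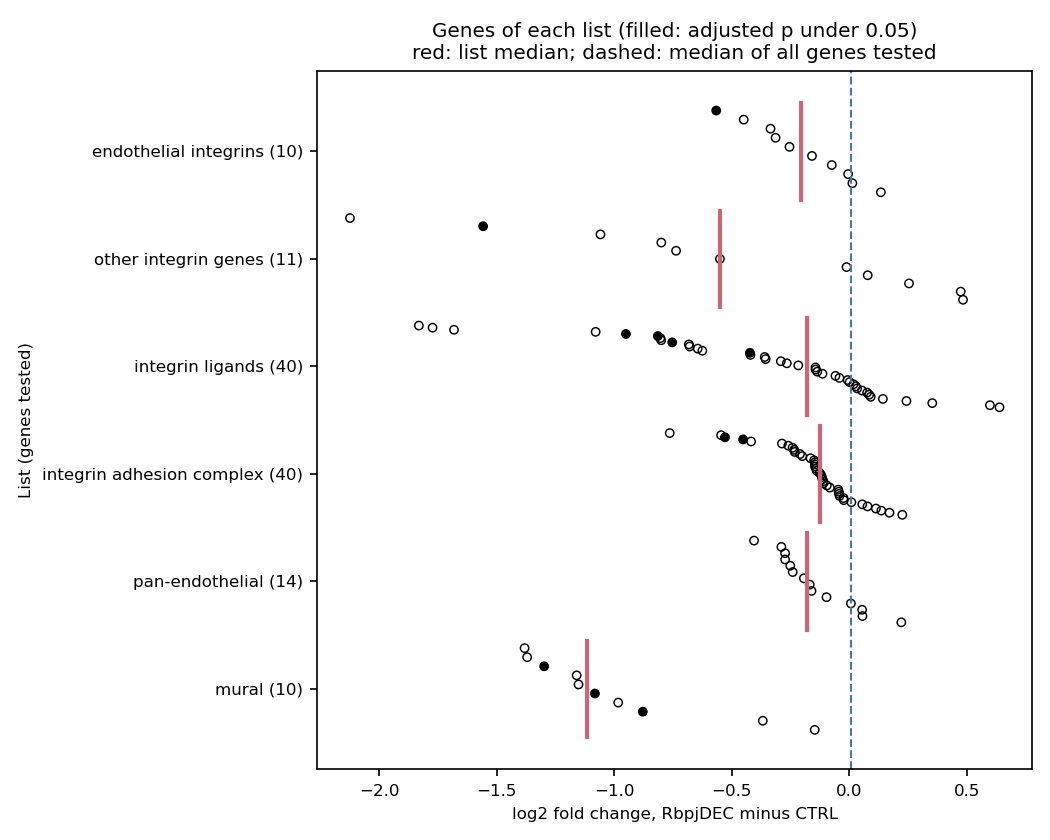
Log2 fold change of RbpjDEC minus CTRL (x axis) for every tested gene of 6 lists (y axis, number tested in brackets). Filled points passed an adjusted p of 0.05, red lines mark list medians and the dashed line the median of all genes. The medians of the integrin (-0.21), ligand (-0.18), adhesion complex (-0.12) and pan-endothelial (-0.18) lists lie below that of all genes (0.01), and that of the mural list at -1.12.

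The 14 pan-endothelial markers were all detected and tested, and their sums did not overlap either. They summed to 27313 to 30132 CPM in CTRL and to 24953 to 25129 CPM in RbpjDEC, with a median log2 fold change of -0.18 and 0 genes past the adjusted threshold (at an unadjusted p below 0.05, 5 were lower and 1 higher). Scaled to this sum in place of TMM, the median of all genes moved up by 0.21, 95 genes were lower and 1457 higher, and the log2 fold changes were -0.36 for Itgb4 (edgeR adjusted p = 0.0758), -0.12 for Itgb1, -0.04 for Itga3 and 0.35 for Itga5 (edgeR adjusted p = 0.0322). Of the 10 genes, Itga5 passed on that scale, on which Itga1, Itga9 and Itgav were above 0 and the median of the 10 was 0.0046. On the same scale 2 genes of the adhesion complex list were higher and 0 lower (median 0.09), and the log2 fold changes of Tns3 (-0.24, edgeR adjusted p = 0.111) and Actn1 (-0.32, edgeR adjusted p = 0.0890) did not pass, nor did that of Lamb1 (-0.21, edgeR adjusted p = 0.144). Itga4, Col18a1, Vwf and Fbn1 still passed as lower, and 6 ligand genes passed in all, 5 lower and 1 higher (list median 0.035). The part of this shift in the integrin differences was not tested.
Among EC subtypes, arterial markers (10 tested, 2 lower and 0 higher at an edgeR adjusted p below 0.05, median -0.49, sums of 2493 to 2638 CPM in CTRL and 2147 to 2487 CPM in RbpjDEC) and glomerular EC markers (6 tested, 3 lower and 0 higher, median -0.71, sums of 2007 to 2504 and 1351 to 1763 CPM) did not overlap in their sums. Those that passed were Fbln5 and Jag1 of the arterial list and Pi16, Lpl and Tbx3 of the glomerular list. Of the arterial markers, 6 were lower and 1 higher without overlap. The arterial list holds the Notch-associated genes Hey1 and Jag1, so it does not measure arterial ECs independently of the Rbpj deletion. Lymphatic EC markers summed to 620.0 to 713 CPM in CTRL and 645 to 682 CPM in RbpjDEC, with 0 of 5 tested past the threshold. Their median log2 fold change was -0.72, and 3 were lower and 0 higher at an unadjusted edgeR p below 0.05. Without overlap, 2 lymphatic markers were lower and 1 higher. Mural cell markers (10 tested, 3 lower and 0 higher, median -1.12) summed to 249 to 294 CPM in CTRL and 189 to 225 CPM in RbpjDEC, and stroma markers (3 tested, 1 lower) to 4.63 to 7.08 and 1.54 to 2.92 CPM. The mural genes were Acta2, Myh11 and Rgs5 and the stroma gene Pdgfra. The part of these cell types in the lower Itgb1, Itgb4 and Itga3 levels was not tested.
Most of the podocyte sum given above was Synpo. Tubule markers summed to 294 to 424 CPM in CTRL and 128 to 462 CPM in RbpjDEC, with 0 genes past the threshold. Macrophage markers summed to 22.3 to 24.5 CPM in CTRL and 31.6 to 36.1 CPM in RbpjDEC, where Cd68 alone was higher (log2 fold change 1.27, edgeR adjusted p = 0.0154) and Csf1r had -1.57 without passing. B cell markers stayed at or below 0.823 CPM in sum, T cell markers at or below 0.0845 CPM, and Cd3d and Cd3e had 0 counts in all 6 libraries.

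The genes whose pattern over the 6 libraries was closest to that of Itgb4 were taken from 10441 other tested genes of at least 5 CPM, by the root mean square difference of centred log2 CPM. They were Eps8l2 (0.0363), which encodes an actin regulator, Prkca (0.0745), protein kinase C alpha, Ndufs5 (0.0801), a subunit of respiratory complex I, Sorbs2 (0.0833), an adaptor of actin stress fibres, and Atp2a3 (0.0848), a calcium pump of the endoplasmic reticulum. Their log2 fold changes were -0.56, -0.64, -0.44, -0.51 and -0.69 in that order, and closeness to a gene that fell fixes this direction.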

How the data were processed

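Kidney ECs of 3 CTRL and 3 RbpjDEC mice were profiled by stranded total RNA sequencing in a common run. The authors trimmed reads with Trim Galore 0.6.4, aligned them with STAR 2.6.1d to GRCm38.p6 and counted them per gene with featureCounts (Subread 1.6.4) on GENCODE M25, per the labels and the methods, and deposited raw counts as they stood. The sample titles gave each library's group. Some genes are not reported here.
Counts were compared in R 4.3.3 with edgeR 4.0.16 (filterByExpr, TMM, estimateDisp, robust glmQLFit, glmQLFTest), with Benjamini-Hochberg adjustment. Standard errors came from the log2 fold change and the F statistic, with 95% intervals. DESeq2 1.42.0, with outlier and independent filtering off as in the study, was an alternative on all genes with counts and on the filtered genes. Coordinates and exonic lengths came from GENCODE M21 on GRCm38, an earlier release than that used for counting. The fit was also run on simulated data, and the outcome is not given here. No pair of replicates had identical counts, and all pairs in a group differed by more than sampling noise. Depth put 3 counts at 0.0634 to 0.0749 CPM, which covers counting error only.
The 10 genes and all lists were chosen with earlier results of these data known. Named were all 10 genes, genes of the other integrin, ligand and adhesion lists that passed or were among the 5 smallest p values or show the receptor's ligand or partner (the latter chosen after their values were seen), markers that passed or were at 0, and the 5 genes most like Itgb4. Hey1, Nphs1, Synpo, Ptprc and Csf1r fell outside this rule and were also named after their values were seen. Alternatives covered scaling, low-count filter, test, replicate block and each library left out.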

Additional observations from a re-analysis of the deposited data

How the results depend on the processing

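The labels do not say whether the replicate numbers shared by the groups pair the mice. Deviations of same-numbered libraries from their group means correlated by 0.0054 to 0.023, and no library correlated best with its own number. Deviations within 3 libraries balance around 0, so these values cannot exclude a pairing. With the replicate number as a block, 7 ligand genes passed in place of 4, 1 of the 10 integrin genes passed as without it, and the log2 fold change of Itga6 was -0.013.
Of the 10 integrin genes, 4 passed with no low-count filter (Itgb4, Itgb1, Itga3 and Itgb3) in place of 1. DESeq2's Wald test was run on 38324 genes without that filter, where 2 passed, and, as an alternative chosen after seeing the data, on the same 18438 genes, where 3 passed. Of the other integrin genes, 5 passed with no filter, 3 with DESeq2 on either set of genes, 0 with library size alone and 0 with a filter of 1 CPM in 3 libraries. Of the ligand genes, 11 passed with no filter and 10 with DESeq2 on either set, and of the adhesion complex genes 5 passed with no filter and 4 with DESeq2 on the filtered genes in place of 2. Without 1 library in turn the counts ranged from 0 to 2 for the 10 integrin genes, 0 to 3 for the other integrins, 1 to 8 for the ligands and 0 to 4 for the adhesion complex. These counts were at their highest without CTRL 2, and none of the 10 integrin genes passed without CTRL 3, RbpjDEC 1 or RbpjDEC 2 (edgeR's quasi-likelihood test, with 3 or 4 genes at an unadjusted p under 0.05). The cause was not tested.
Over all genes, 209 passed, against 1436 with no filter, 584 with DESeq2 unfiltered, 944 with DESeq2 on the filtered genes, 344 with the block, 1552 scaled to the pan-endothelial markers and 21 (without RbpjDEC 1) to 700 (without CTRL 2) with 1 library left out.
The log2 fold change of Itgb4 was between -0.64 and -0.50 without 1 library in turn, and -0.36 when scaled to the pan-endothelial markers, a setting chosen after seeing the data. On that scale the log2 fold changes of Itga1 (0.14), Itga9 (0.053) and Itgav (0.21) changed sign. Itgav was also above 0 with library size alone (0.038) and with no filter (0.0027), and ranged from -0.097 to 0.12 without 1 library in turn. Itga6 ranged from -0.16 to 0.19 in the same way. Itgav and Itga6 had no stable direction. In the fits without 1 library, Itga9 ranged from -0.22 to -0.083 and Itga1 from -0.15 to -0.028. With 3 mice a group, and Itga2 at 42 to 77 counts, small differences could be missed.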

Other observations

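Both groups overlapped for a pair of integrin genes with epithelial roles. Itgb6, the beta chain of the epithelial receptor alphavbeta6, had 3.94, 1.88 and 1.87 CPM in CTRL 1 to 3 and 1.72, 0.262 and 3.27 CPM in RbpjDEC 1 to 3 (log2 fold change -0.55, edgeR adjusted p = 0.770). Itgb8, whose dimer with alphav activates latent TGF-beta, had 1.75, 1.67 and 2.96 CPM in CTRL 1 to 3 and 1.25, 1.50 and 6.19 CPM in RbpjDEC 1 to 3 (log2 fold change 0.48, edgeR adjusted p = 0.752). The tubule markers summed to 424, 294 and 309 CPM in CTRL 1 to 3 and 172, 128 and 462 CPM in RbpjDEC 1 to 3. RbpjDEC 3, with the highest tubule sum of its group, had the highest Itgb6 and Itgb8 and the lowest Itga6 (223 CPM) of that group. CTRL 1, with the highest tubule sum of its group, had the highest Itgb6 but not the highest Itgb8, and the highest Itga6 (327 CPM). Both genes were described after their values were seen.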
